A study of Mus musculus with 72 samples.

Results

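Spleens of mice given TS, PD1 and CYTO together were compared with spleens of mice given PD1 and CYTO without TS, all taken at study day 23. The members are the 6 spleen libraries whose deposited labels give these 2 treatments, 3 TS/PD1/CYTO mice (numbers 58, 59 and 60) and 3 PD1/CYTO mice (38, 39 and 40), of 72 libraries in all. The mice were BALB/c animals bearing CT26, a mouse colon carcinoma line. Every animal carried the tumor, and no spleen of a tumor-free mouse is among the samples. The labels do not spell out PD1, CYTO or TS, nor give reagents, doses or schedules, so the names are used as written. PD-1 itself is an inhibitory checkpoint receptor of T cells. The comparison asks what the addition of TS to PD1/CYTO went with in the spleen. The other 12 day 23 spleens belong to the Isotype control, PD1, CYTO and TS/CYTO arms, 3 mice each. RNA was sequenced as stranded, paired-end, polyadenylated libraries from RNAlater tissue, and all 18 day 23 spleens are labelled as batch 4.

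The spleen is made of white pulp and red pulp. White pulp is made of B cell follicles and T cell zones around small arteries, and is where lymphocytes meet antigen carried by blood. Red pulp is a blood filter in which macrophages break down old red cells and recycle their iron, and in mice it also keeps producing red cells, granulocytes and platelets through adult life. In tumor-bearing mice that production in the spleen can expand. In a bulk sample, fewer cells of a type and less RNA per cell cannot be told apart.

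Values are log2(TPM + 1), where TPM is transcripts per 1e+06 over all genes of the authors' annotation; levels and differences below are on that scale unless stated. The lowest listed value, 0.01, is called the floor. TPM is a share of the whole, so a library with more RNA from genes outside the table has lower values for those in it. TPM keeps no read number, and precision here comes from the spread between mice alone. The 6 spleens had 9918 to 11075 genes above the floor, and the share of TPM belonging to genes outside the table was 42.0 to 44.3% in the PD1/CYTO spleens and 40.4, 59.1 and 54.4% in spleens 58, 59 and 60. No pair of libraries held identical values. Of 36 marker genes named for the check of tissue, 35 are in the table. Those of B cells (MS4A1, 5.51 to 7.72), red pulp macrophages (SPIC, 4.99 to 6.73), erythroid cells (ALAS2, 9.65 to 10.67) and splenic stroma (TLX1, 2.44 to 4.19) were above the floor in all 6 spleens.

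No gene differed between the arms at an adjusted p of 0.05. Limma, fitted over all 18 spleens, tested 11184 genes and called 0 higher and 0 lower (0% in each direction), with a smallest Benjamini-Hochberg adjusted p of 0.273. Before adjustment, 42 genes (0.376%) were higher and 1645 (14.7%) lower in TS/PD1/CYTO at p under 0.05. The difference was below 0 for 8908 genes (79.6%) and above it for 2245 (20.1%). Counts of list members lower or higher in the TS/PD1/CYTO mean are to be read beside these shares. The median difference over all genes was -0.33, with a median standard error (SE) of 0.26. That median depends on scale. It was -0.15 after the listed TPM of each library were brought to the same sum and -0.02 after quantile normalization.

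The 3 TS/PD1/CYTO spleens were not alike. Spleen 58 lay within the range of the PD1/CYTO spleens for 58.2% of genes, above it for 32.3% and below it for 9.54%. Spleen 59 was below that range for 70.2% of genes and within it for 17.2%, and spleen 60 was below for 63.0% and within for 22.6%. Against the other 12 spleens the shares were smaller. Spleen 59 was below all 12 at 36.7% of genes and spleen 60 at 10.4%, while spleen 58 was above all 12 at 35.9%. Over the means of 41 gene lists, spleen 59 was below all 12 in 30 and spleen 60 in 11. Spleens 59 and 60 were both below every PD1/CYTO spleen at 6962 genes (62.2%) and both above at 1262 (11.3%). The 3 TS/PD1/CYTO spleens together lay above all 3 PD1/CYTO spleens at 30 genes (0.268%) and below them at 163 (1.46%).

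Principal components of the 18 spleens, drawn from the same genes and values, described the same placement and are not separate evidence for it. The first component carried 63.7% of the variance, and spleens 58 and 59 were its highest and lowest libraries. PD1/CYTO spleens 38, 39 and 40 scored 46.4, 43.0 and 25.4, and spleens 58, 59 and 60 scored 55.2, -63.2 and -37.2. The lowest libraries of the other arms were Isotype spleens at -48.3 and -43.8, which is below spleen 60. Across the 11184 genes, Pearson's r was 0.992 between spleens 59 and 60 and 0.990 between spleens 58 and 38, against 0.904 between spleens 58 and 59, as a description of these libraries.

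**Figure D1:**
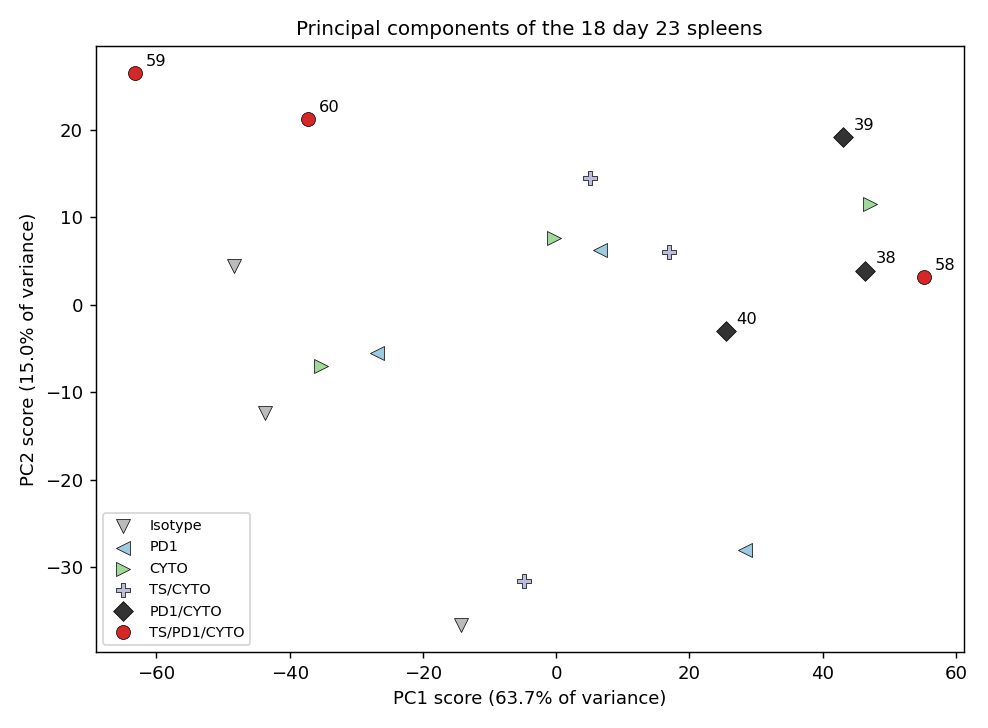
Scores of the 18 day 23 spleens on the first component (horizontal, 63.7% of variance) and the second (vertical), with 1 point per spleen, marker by arm, and mouse numbers beside the 6 spleens compared. Spleen 58 sits at 55.2 beside the PD1/CYTO spleens (25.4 to 46.4), and spleens 59 and 60 sit at -63.2 and -37.2 on the other side.

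RNA integrity and tumor volume overlapped between the arms. RNA integrity numbers were 8.4, 8.8 and 7.1 in spleens 38, 39 and 40 and 7.6, 8.8 and 9.0 in spleens 58, 59 and 60 (difference of means 0.37). Tumor volumes were 294, 702 and 29.2 mm3 in the PD1/CYTO mice and 175, 2198 and 321 mm3 in the TS/PD1/CYTO mice. Mouse 59 had the largest tumor of the 18, and mouse 60 had one within the range of the PD1/CYTO mice. Whether scores on the first component go with tumor volume was not tested. The Isotype spleens at -48.3 and -43.8 on that component came from mice with tumors of 1772 and 1623 mm3. PD1 spleen 30 (1616 mm3) scored -26.9 and CYTO spleen 18 (1417 mm3) scored -35.3. TS/CYTO spleens 48, 49 and 50 (1178, 1097 and 1171 mm3) scored -4.8, 16.9 and 5.1. Neither measure passed an exact two-sided permutation test (p = 0.6 for RNA integrity and 0.5 for log2 tumor volume, 0.6 for both after adjustment over 4 measures), nor did the share of TPM outside the table or the number of genes above the floor (p = 0.4 each, adjusted 0.6). With 3 against 3 spleens such a test cannot go below 0.1. With log2 tumor volume as a covariate limma called 0 genes and 139 had an unadjusted p under 0.05, in place of 1687. Without spleen 58, the fit with tumor volume called 3130 genes.

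The number of calls depended on spleen 58. Without spleen 59 the fit called 0 genes (0% in each direction), with 46 at an unadjusted p under 0.05 (0.143% higher and 0.268% lower), and without spleen 60 it called 0, with 133 (0.143% higher and 1.05% lower). Without PD1/CYTO spleen 38, 39 or 40 it called 0 as well, with 272, 790 and 1645. Without spleen 58 it called 6549 of 11125 genes, 824 higher (7.41%) and 5725 lower (51.5%), at a median difference of -0.56. This last fit sets 2 spleens against 3 after the spleen most like the PD1/CYTO group is gone. Its counts, and the differences, p-values and list counts given below for it, describe how spleens 59 and 60 differ from spleens 38 to 40. They are not a test of the arm. Of the calls, 87.4% were lower on the deposited scale, 66.3% (3828 of 5770) with the listed TPM rescaled and 51.9% (2708 of 5220) after quantile normalization. Without spleens 58 and 60 there were 5466 calls, and without 58 and 59 there was 1, a replication-dependent histone gene, HIST1H3H, named after its value was seen (1.55 ± 0.21 SE, adjusted p = 0.0305). These 2 fits leave 1 TS/PD1/CYTO spleen, which is taken to vary as the other arms do.

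**Figure D2:**
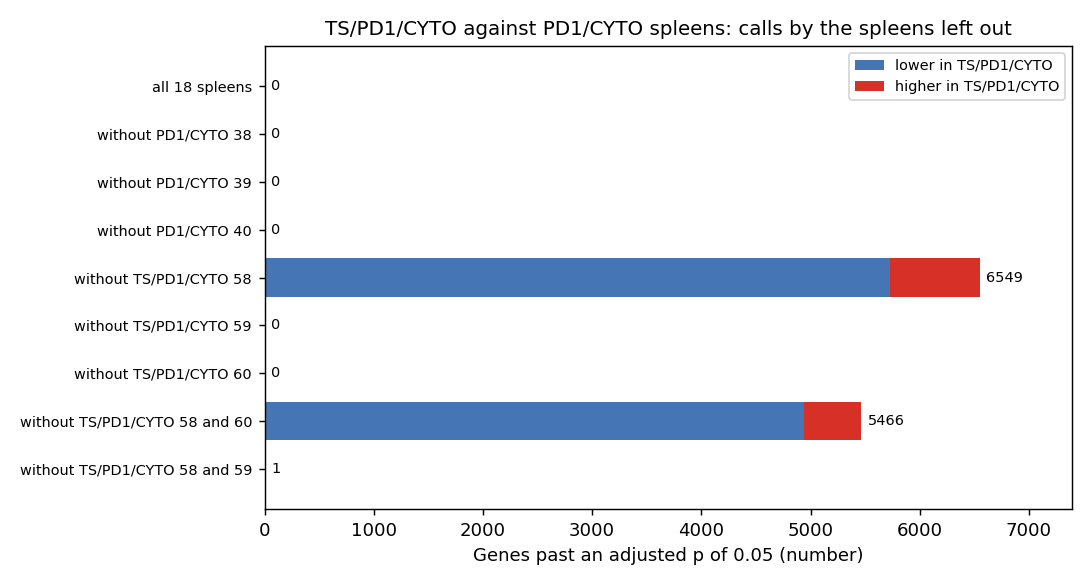
Number of genes past an adjusted p of 0.05 in limma for TS/PD1/CYTO against PD1/CYTO (horizontal, genes lower in blue and higher in red) by the spleens left out (rows). The bar is at 0 with all spleens and when any of spleens 38, 39, 40, 59 or 60 is left out, and at 6549 without spleen 58.

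Genes of B cells were low in spleens 59 and 60 and not in spleen 58. CD79A (chr7:24897381-24902197, + strand, GRCm38), a signalling chain of the B cell receptor, was at 9.26, 8.80 and 9.19 in the PD1/CYTO spleens and at 9.23, 7.04 and 7.37 in spleens 58, 59 and 60. Spleen 58 stood among the PD1/CYTO values, while spleens 59 and 60 lay under every one of the other 12 spleens (7.71 to 9.10). The difference was -1.20 ± 0.45 (SE, adjusted p = 0.273), and -1.88 ± 0.31 without spleen 58 (adjusted p = 0.00306). The latter fit called 6549 of 11125 genes and is not a test of the arm. MS4A1, which encodes the surface protein CD20, was at 7.46, 7.28 and 7.72 against 7.71, 5.51 and 5.92. It repeats the order of CD79A, with spleen 59 lowest and spleen 60 next.

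All 15 genes of a B cell identity list were lower in the TS/PD1/CYTO mean, and 0 of them passed the test, in which 0% of all genes were called. Their median difference was -1.14, beside -0.33 over all genes tested, and all 15 had an unadjusted p under 0.05 where 14.7% of all genes were lower at that level. None of the 15 separated the groups. Without spleen 58, 15 of 15 were called lower, where 51.5% of all genes were. The same 15 were also called lower there with listed TPM rescaled (34.4% of all genes) and after quantile normalization (24.3%). All 8 measured genes of marginal zone and follicular B cells were lower too (median -1.14), and 8 of 8 were called lower without spleen 58. One of them is TNFRSF13C, the receptor for the B cell survival factor BAFF, at 6.24, 5.92 and 6.26 against 6.13, 4.42 and 4.44.

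Antibody genes followed the B cell genes. IGHM, the constant region of immunoglobulin M, was at 13.22, 13.20 and 13.30 in the PD1/CYTO spleens and at 13.34, 10.59 and 11.70 in spleens 58, 59 and 60. The PD1/CYTO values span less than the gap to spleen 60, and spleen 58 was the highest of the 6. Among the other 12 spleens IGHM ran from 11.48 to 13.31, so spleen 60 was inside that range and spleen 59 below it. The difference was -1.36 ± 0.50 (adjusted p = 0.273) and -2.10 ± 0.36 without spleen 58 (adjusted p = 0.00306, not a test of the arm). Of 9 measured constant-region genes 8 were lower (median -1.14), and 7 were called lower without spleen 58, where 51.5% of all genes were. IGHE, the constant region of immunoglobulin E, was at the floor in 4 of the 6 spleens and at 0.62 and 0.69 in spleens 59 and 60, where the other 12 spleens ranged from 0.01 to 4.60.

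Of 12 plasma cell and secretion genes, 12 were lower (median -1.07), 10 had an unadjusted p under 0.05 and 1 separated the groups. Over all genes 14.7% were lower at that level and 1.46% were lower without overlap. DERL3, a component of endoplasmic reticulum-associated degradation, was at 4.46, 4.50 and 4.58 against 4.42, 2.02 and 3.25. SDC1, which encodes the plasma cell surface proteoglycan syndecan-1, was at 3.16, 3.05 and 3.11 against 3.10, 0.93 and 1.70. In both, spleen 58 lay close to or among the PD1/CYTO spleens. Without spleen 58, 11 of the 12 were called lower, where 51.5% of all genes were. Of 9 germinal center genes 7 were lower, where 79.6% of all genes were, with a median of -0.30, close to that of all genes. In the fit without spleen 58, 4 of the 9 were called lower, where 51.5% of all genes were. BCL6, the transcriptional repressor of germinal center B cells, was at 3.83, 3.71 and 3.22 against 3.88, 1.97 and 2.25.

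T cell genes were also low in spleens 59 and 60 and not in spleen 58, with no fixed order between the 2 low spleens. CD2, an adhesion receptor of lymphocytes and not of T cells alone, was at 6.40, 6.12 and 6.64 in the PD1/CYTO spleens and at 6.50, 4.35 and 4.38 in spleens 58, 59 and 60. The 2 low spleens differed by only 0.03 and lay under the other 12 (4.98 to 6.26). The difference was -1.31 ± 0.47 (adjusted p = 0.273), or -2.02 ± 0.32 without spleen 58 (adjusted p = 0.00306, not a test of the arm). CD4 was at 4.82, 4.64 and 4.49 against 5.25, 3.00 and 2.84, and CD8A at 4.47, 4.08 and 4.41 against 4.72, 2.50 and 2.87, so the coreceptors of helper and cytotoxic T cells were low in the same spleens. All 17 measured genes of the T cell receptor complex and T cell identity were lower (median -0.98, 0 called). Without spleen 58, 17 of 17 were called lower, where 51.5% of all genes were. The same 17 were called lower there with listed TPM rescaled (34.4% of all genes) and after quantile normalization (24.3%). KLF2, a transcription factor that keeps naive T cells quiescent and circulating, was at 6.54, 6.26 and 6.20 against 6.40, 4.40 and 4.43. It belongs to a list of 10 naive T cell genes, 10 of them lower with a median of -1.16. Without spleen 58, 10 of 10 were called lower, beside 51.5% of all genes.

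Effector and regulatory T cell genes were low in the same 2 spleens. GZMB, the cytotoxic protease granzyme B, was at 2.89, 2.98 and 3.29 against 3.18, 0.85 and 1.55. KLRG1, an inhibitory receptor of effector T and NK cells, was at 2.08, 1.64 and 2.24 against 2.10, 0.16 and 0.12. These 2 genes are among 12 measured cytotoxic effector genes, 12 of them lower (median -0.98). IL2RB, a receptor chain for interleukins 2 and 15, was at 4.41, 4.19 and 4.34 against 4.63, 2.03 and 2.54, and 7 of 7 NK cell genes were lower (median -0.83). CTLA4, a checkpoint receptor of regulatory and activated T cells, was at 1.87, 1.67 and 2.08 against 2.04, 0.15 and 0.39, and TIGIT, another, at 2.61, 2.47 and 2.81 against 2.74, 0.21 and 0.90. Of 12 measured inhibitory checkpoint genes 12 were lower (median -0.91), and of 8 regulatory T cell genes 7 were (median -0.88). None of these 4 lists held a called gene or a gene that separated the groups. Without spleen 58 the numbers called lower were 12 of 12, 7 of 7, 12 of 12 and 7 of 8, where 51.5% of all genes were.

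**Figure D3:**
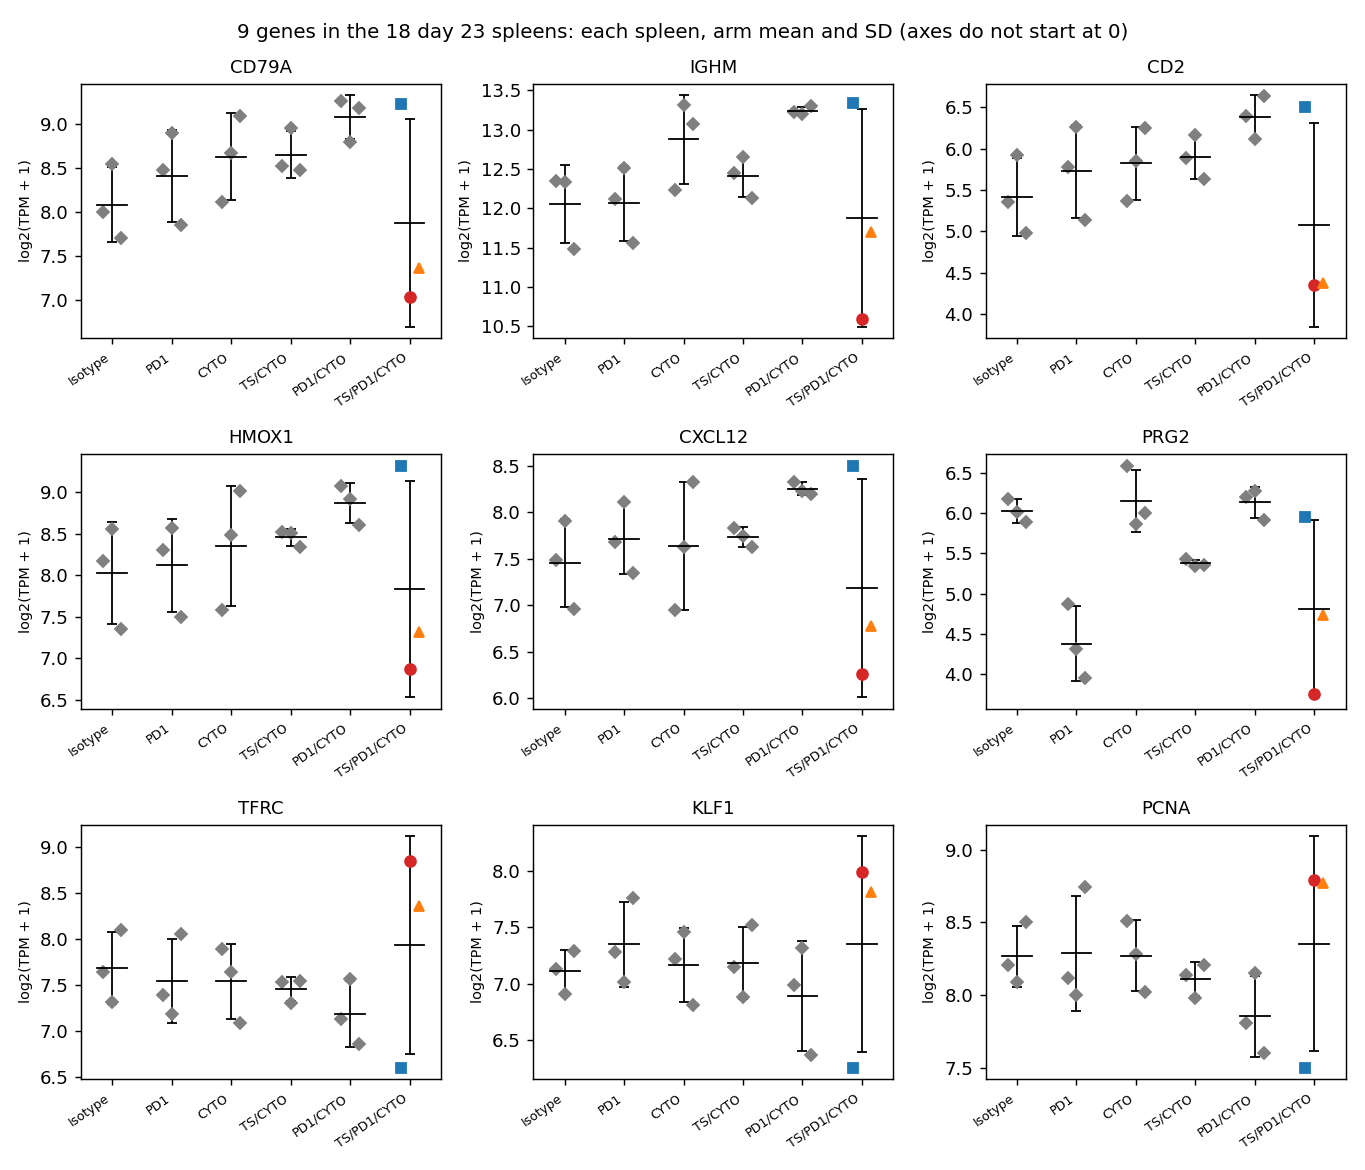
Levels of 9 genes in the 18 day 23 spleens, log2(TPM + 1) on the vertical axis and arms on the horizontal one, with 1 point per mouse and the arm mean ± SD as bars. In the TS/PD1/CYTO arm the blue square is spleen 58, the red circle 59 and the orange triangle 60. CD79A, IGHM, CD2, HMOX1 and CXCL12 are high in 58 and low in 59 and 60, while TFRC, KLF1 and PCNA are the reverse.

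Macrophage, monocyte and dendritic cell genes were lower in the TS/PD1/CYTO mean as well. HMOX1, the heme oxygenase with which red pulp macrophages open the heme ring, was at 9.08, 8.92 and 8.61 in the PD1/CYTO spleens and at 9.32, 6.87 and 7.31 in spleens 58, 59 and 60. Its difference was -1.04 ± 0.52 (adjusted p = 0.273). SPIC, the transcription factor that specifies these macrophages, was at 6.45, 6.39 and 6.31 against 6.73, 4.99 and 5.46, and SLC40A1, the iron exporter ferroportin, at 7.56, 7.66 and 7.57 against 7.94, 6.68 and 6.87. Spleen 58 was the highest of the 6 for all 3 genes. The other 12 spleens ran from 7.35 to 9.01 for HMOX1, 5.38 to 6.59 for SPIC and 6.59 to 7.78 for SLC40A1. Spleen 60 was under that range for HMOX1 only, and spleen 59 for HMOX1 and SPIC. All 14 measured genes of red pulp macrophages were lower (median -0.80), 2 of them with an unadjusted p under 0.05, a share close to the 14.7% of all genes. Without spleen 58, 14 of 14 were called lower, where 51.5% of all genes were. All 3 marginal zone macrophage genes were lower too (median -0.82), and 3 of 3 were called lower without spleen 58. Of 11 cross-presenting dendritic cell genes 11 were lower (median -0.90), among them TAP1, a subunit of the peptide transporter of class I presentation, at 5.99, 5.81 and 5.76 against 5.95, 4.05 and 4.68. Of 8 monocyte genes 8 were lower (median -0.80), of which 7 were called lower without spleen 58.

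Granulocyte genes fell into separate sets of values. CSF3R, the receptor for granulocyte colony-stimulating factor, was at 5.16, 5.57 and 4.22 against 4.20, 3.52 and 4.43, and MMP9, a neutrophil gelatinase, at 3.33, 3.50 and 2.25 against 2.32, 1.37 and 2.66. For these genes spleen 58 was near PD1/CYTO spleen 40, and spleen 60 lay above spleen 40 but below spleens 38 and 39. CXCR2, a neutrophil marker, was at 3.89, 4.30 and 3.24 against 3.55, 2.28 and 3.17, with spleen 60 under every PD1/CYTO spleen. Of 10 mature neutrophil genes 8 were lower (median -0.67), where 79.6% of all genes were. An unadjusted p under 0.05 was found for 7, where 14.7% of all genes were lower at that level. The groups were separated by 3, where 1.46% of all genes did so on the lower side. Without spleen 58, 5 of 10 were called lower, where 51.5% of all genes were, and 0 after quantile normalization, where 24.3% were. The abundant calgranulin genes of that list had differences near 0, whose sign turned when spleen 60 was left out. S100A8 was at 8.78, 9.19 and 8.38 against 9.07, 8.22 and 9.69 (difference 0.21 ± 0.39), and S100A9 at 9.76, 10.15 and 9.32 against 9.88, 9.11 and 10.51 (difference 0.09 ± 0.37). Spleen 60 was the highest and spleen 59 the lowest of the 6 for both. Genes of granulocyte precursors had a median difference above 0 (0.31, 7 of 9 higher, 0 called). MPO, the myeloperoxidase of primary granules, was at 4.48, 4.58 and 2.98 against 4.29, 3.23 and 5.16, and ELANE, neutrophil elastase, at 4.37, 4.38 and 2.86 against 3.96, 3.59 and 5.21. Spleen 60 was highest and PD1/CYTO spleen 40 lowest in both, and the arms overlapped. Without spleen 58, 0 of the 9 were called.

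Eosinophil genes were low in the same 2 spleens. PRG2 (chr2:84980461-84983632, + strand, GRCm38), the eosinophil granule major basic protein, was at 6.20, 6.28 and 5.92 in the PD1/CYTO spleens and at 5.95, 3.75 and 4.74 in spleens 58, 59 and 60. The difference was -1.32 ± 0.39 (unadjusted p = 0.00402, adjusted p = 0.273), and it was -1.89 ± 0.28 without spleen 58. EPX, eosinophil peroxidase, was at 2.11, 2.38 and 1.20 against 1.41, 0.01 and 0.33, with spleen 59 at the floor. All 9 measured genes of eosinophils, basophils and mast cells were lower (median -0.78), 5 with an unadjusted p under 0.05 and 1 separating the groups. Over all genes those shares were 14.7% and 1.46% on the lower side. Low PRG2 was not confined to these spleens, as the other 12 ranged from 3.95 to 6.59 and the 3 PD1 spleens held the lowest of those values.

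Stromal, vascular and matrix genes were below the PD1/CYTO level in spleens 59 and 60 too. CXCL12, a chemokine of reticular stroma that retains blood-forming cells and lymphocytes, was at 8.33, 8.23 and 8.20 against 8.50, 6.26 and 6.78. NKX2-5, a homeobox factor of spleen development, was at 2.59, 2.14 and 2.25 against 2.14, 0.77 and 1.01. PECAM1, a junction protein of endothelium also found on platelets and leukocytes, was at 5.74, 5.56 and 5.49 against 5.87, 3.74 and 4.21. In the other 12 spleens CXCL12 ran from 6.95 to 8.33, NKX2-5 from 0.67 to 2.06 and PECAM1 from 4.14 to 5.80. Spleen 60 was under that range for CXCL12 only, and spleen 59 for CXCL12 and PECAM1. Of 14 stromal and lymphoid chemokine genes 13 were lower (median -0.81), of 13 endothelial genes 13 (median -0.63) and of 14 collagen and matrix genes 13 (median -0.60). Without spleen 58 the numbers called lower were 13, 13 and 12, where 51.5% of all genes were, and after quantile normalization of those libraries 8, 7 and 6, where 24.3% were. The type I collagen gene COL1A1 was at 3.95, 3.81 and 2.43 against 3.70, 2.13 and 2.56, so PD1/CYTO spleen 40 fell between spleens 59 and 60 there.

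Erythroid genes ran the other way. TFRC (chr16:32608920-32632794, + strand, GRCm38), the transferrin receptor through which erythroblasts take up iron, was at 7.13, 7.57 and 6.86 in the PD1/CYTO spleens and at 6.60, 8.85 and 8.36 in spleens 58, 59 and 60. Spleen 58 was the lowest of the 6 and spleens 59 and 60 the highest. Its difference was 0.75 ± 0.44 (adjusted p = 0.278), and 1.42 ± 0.29 without spleen 58 (adjusted p = 0.00309, not a test of the arm). Among the other 12 spleens TFRC ran from 7.09 to 8.10, so spleen 58 was under that range and spleens 59 and 60 over it. The erythroid transcription factors GATA1 and KLF1 were at 5.75, 6.12 and 5.08 against 5.04, 6.70 and 6.61, and at 6.99, 7.32 and 6.36 against 6.25, 7.99 and 7.82. In a list of 16 measured erythroid genes 16 were higher in the TS/PD1/CYTO mean, at a median of 0.47 where 20.1% of all genes were higher. None of the 16 was called, had an unadjusted p under 0.05 or separated the groups. Without spleen 58, 13 of 16 were called higher, where 7.41% of all genes were, with a median of 1.04, and 15 of 16 after quantile normalization, where 22.6% were.

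The promoters of KLF1 and ALAS2 are shown because both are erythroid markers and carry a GATA motif, the site class bound by GATA1. The sequences are from RefSeq (GRCm38.p6), 250 to 61 bases before the listed start on the + strand, 5′ to 3′, at chr8:84901732-84901921 for KLF1 and chrX:150547167-150547356 for ALAS2. Capitals mark AGATAA or TGATAA on either strand.
KLF1: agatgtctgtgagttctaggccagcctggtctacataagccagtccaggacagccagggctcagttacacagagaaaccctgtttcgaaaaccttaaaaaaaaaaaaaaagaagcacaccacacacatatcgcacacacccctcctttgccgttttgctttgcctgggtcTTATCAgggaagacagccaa
ALAS2: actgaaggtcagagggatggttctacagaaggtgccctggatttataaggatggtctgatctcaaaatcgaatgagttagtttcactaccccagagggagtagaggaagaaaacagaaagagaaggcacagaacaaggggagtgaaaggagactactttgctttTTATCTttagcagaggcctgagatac
Each window holds 1 match. In windows of the same length, 3806 of 27025 promoters held a match (14.1%), as did 5 of the 12 erythroid genes with a listed promoter (41.7%), 2 of 9 heme synthesis and iron genes (22.2%) and 0 of 10 B cell identity genes. A match is a string of letters, and no binding was measured here.

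Heme synthesis and cell division genes had the erythroid order. ALAS2, the enzyme that starts heme synthesis in erythroid cells, was at 9.93, 10.11 and 9.66 in the PD1/CYTO spleens and at 9.65, 10.67 and 10.38 in spleens 58, 59 and 60 (difference 0.33 ± 0.21, adjusted p = 0.285). SLC25A38, the mitochondrial glycine carrier for that step, was at 6.27, 6.56 and 6.21 against 5.83, 7.78 and 7.57, and UROS, a later enzyme of the pathway, at 6.06, 6.38 and 5.66 against 5.48, 7.43 and 7.20. All 12 measured genes of heme synthesis and iron were higher (median 0.50, 0 called). Without spleen 58, 10 of 12 were called higher, where 7.41% of all genes were. PCNA, the sliding clamp of DNA replication, was at 7.81, 8.15 and 7.60 against 7.50, 8.79 and 8.77, and the mitotic kinase CDK1 at 7.10, 7.42 and 6.91 against 6.58, 8.31 and 8.29. Of 16 replication genes 16 were higher (median 0.34) and of 16 mitosis genes 16 (median 0.44), with 0 called in either. The numbers called higher without spleen 58 were 14 and 13, and 16 and 15 after quantile normalization, where 22.6% of all genes were. Spleen 58 had the lowest mean of the 6 for each of the erythroid, heme, replication and mitosis lists, and spleens 59 and 60 exceeded the highest of the other 12 spleens in each.

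Clustered histone genes, whose main transcripts lack a poly(A) tail, were mostly low in these polyadenylated libraries. HIST1H1A was at the floor in spleens 38, 39, 40 and 58 and at 1.76 and 1.00 in spleens 59 and 60, and HIST1H3A was likewise at the floor in those 4 and at 0.78 and 0.57 in spleens 59 and 60. Of 10 measured members 7 were higher (median 0.30), and 5 had an unadjusted p under 0.05. Over all genes 0.376% were higher and 14.7% lower at that level. Platelet and megakaryocyte genes did not share the erythroid order. PF4, platelet factor 4, was at 7.19, 7.57 and 7.73 against 7.79, 6.42 and 7.62, and 13 of 14 such genes were lower with a median of -0.45. Without spleen 58, 9 of 14 were called lower on the deposited scale, where 51.5% of all genes were, and 0 after quantile normalization, where 24.3% were.

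**Figure D4:**
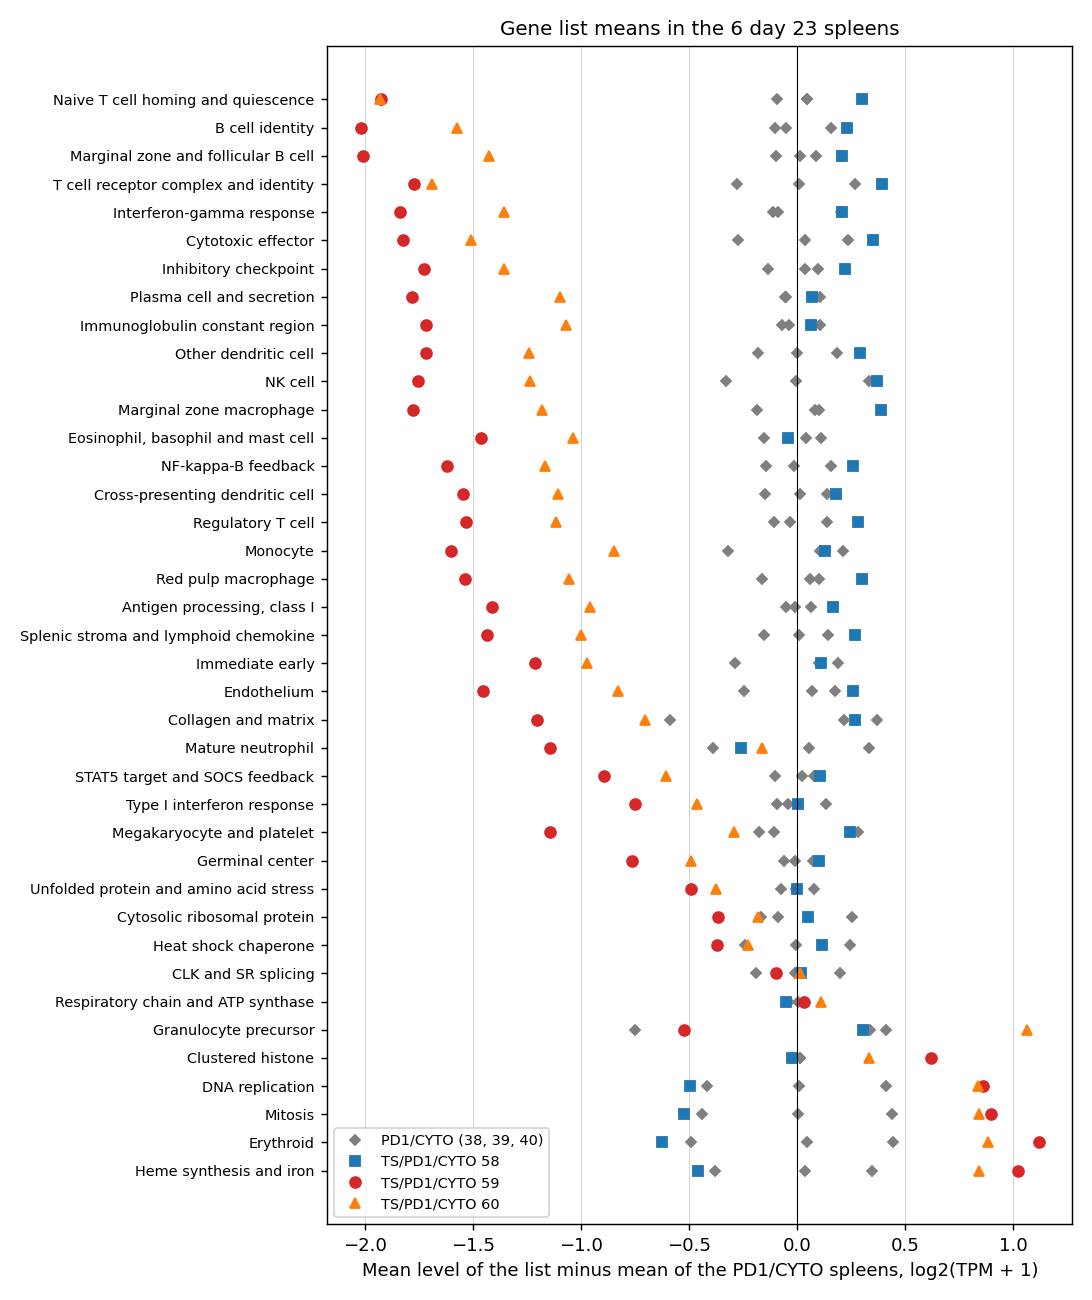
Mean level of each gene list in each of the 6 spleens minus the mean of the 3 PD1/CYTO spleens (horizontal, log2(TPM + 1)), with lists as rows ordered by the TS/PD1/CYTO mean. Lymphoid, macrophage, dendritic cell and stromal lists lie to the left for spleens 59 and 60 and near or right of 0 for spleen 58, the neutrophil list is left of 0 in all 3, the granulocyte precursor list is right of 0 for spleen 60, and the erythroid, heme, replication and mitosis lists lie on the opposite sides.

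Interferon-gamma response genes were low in spleens 59 and 60. UBD, an interferon-inducible ubiquitin-like modifier, was at 4.11, 3.80 and 5.25 in the PD1/CYTO spleens and at 4.91, 1.55 and 2.38 in spleens 58, 59 and 60. Its difference was the widest among lower genes named from the fit without spleen 58 (-2.42 ± 0.41, adjusted p = 0.00306, not a test of the arm). GBP3, an interferon-induced guanylate-binding protein, was at 4.03, 4.05 and 4.27 against 4.24, 2.17 and 2.77. All 14 measured interferon-gamma response genes were lower (median -1.07, 0 called). Of these, 11 had an unadjusted p under 0.05, where 14.7% of all genes were lower at that level. Without spleen 58, 14 of 14 were called lower, where 51.5% of all genes were. Of 12 class I antigen processing genes 12 were lower (median -0.84), and of 12 NF-kappa-B feedback genes 12 (median -0.87). Of 17 type I interferon genes 13 were lower, where 79.6% of all genes were, with a median of -0.30 close to that of all genes. ZBP1, a sensor of nucleic acids, was at 4.76, 4.71 and 5.12 against 4.97, 2.99 and 3.66, whereas USP18, an interferon-induced brake on the type I receptor, was at 3.70, 3.96 and 3.78 against 3.81, 3.94 and 4.13. Without spleen 58 that list had 8 genes called lower and 2 higher, where 51.5% and 7.41% of all genes were. After quantile normalization it had 4 lower and 6 higher, where 24.3% and 22.6% were.

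Several housekeeping programs lay near 0. Ribosomal protein genes were lower by a median of -0.16 in 24 of 24, but the median was 0.07 with listed TPM rescaled and 0.01 after quantile normalization. Respiratory chain genes (median 0.05, 11 of 18 higher) and splicing factor genes (median 0.00, 8 of 15 higher) had medians close to 0, and heat shock chaperones near the median of all genes (-0.26). Of 15 immediate early genes 14 were lower (median -0.72). JUND, a subunit of the AP-1 transcription factor, was at 6.49, 6.04 and 6.20 against 6.06, 5.02 and 5.08, with spleen 58 again between spleens 39 and 40.

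The genes with the smallest p among those above the median of mean levels did not pass either. SCAND1 (chr2:156311847-156312704, - strand, GRCm38), a small SCAN domain protein, was at 6.64, 6.24 and 6.44 in the PD1/CYTO spleens and at 5.99, 5.59 and 6.03 in spleens 58, 59 and 60, so the groups did not overlap (difference -0.57 ± 0.15, unadjusted p = 0.00133, adjusted p = 0.273). The other 11 lower genes named by this rule are PRG2, GMPPA, ACBD6, JUND, RP9, PGLS, NCF4, MSRB1, CRELD2, EDEM1 and SDF2L1, at differences from -1.32 to -0.40, and 5 of the 12 did not overlap. CRELD2, EDEM1 and SDF2L1 encode endoplasmic reticulum proteins for folding and disposal of secretory proteins. EDEM1 was at 5.31, 5.49 and 5.78 against 5.48, 3.75 and 4.37. NCF4, a cytosolic subunit of the phagocyte oxidase, was at 6.33, 6.39 and 6.21 against 6.32, 4.67 and 5.18. Spleen 58 lay inside the PD1/CYTO range for both.

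The 12 higher genes named by the same rule were CAMTA1, HEBP1, CREG1, CLP1, HACE1, VRK2, RDM1, MED6, EVI5, ATG4A, TMX1 and MOSPD1, at differences from 0.27 to 0.65 and adjusted p of 0.273 each. CAMTA1, a calmodulin-binding transcription activator, was at 4.22, 4.10 and 3.82 against 4.33, 4.59 and 4.79, and it is 1 of 4 of these genes whose groups did not overlap. HEBP1, a heme-binding protein, was at 7.14, 7.39 and 7.35 against 7.30, 8.03 and 7.96. Without spleen 58, the largest higher differences by the rule were those of NACAD, CCNE2, CHAC2, CENPK, SAMD11 and TFRC (1.42 to 2.08). CCNE2, a cyclin of entry into S phase, was at 4.19, 4.74 and 4.24 against 3.85, 6.14 and 5.78, and CENPK, a centromere protein, at 4.33, 4.46 and 4.14 against 3.96, 5.82 and 5.70. The largest lower ones were those of UBD, SBK1, C4B, ITGB7, IGFBP3 and IGHM (-2.42 to -2.10). ITGB7, the integrin chain of gut homing lymphocytes, was at 6.22, 6.08 and 6.05 against 6.40, 3.86 and 4.16, and C4B, a complement component, at 5.67, 5.82 and 5.29 against 5.83, 3.21 and 3.76. All 12 of these genes overlapped between the arms once spleen 58 was counted.

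Exocrine pancreas markers were above the floor in PD1/CYTO spleen 38. The digestive enzyme genes CPA1, CELA2A, PNLIP and CTRB1 were at 2.01, 3.40, 2.42 and 4.05 in spleen 38 and at the floor in the other 5, and ADIPOQ, the adipocyte hormone adiponectin, was at 1.10 there and at the floor elsewhere, while the adipocyte markers PLIN1 and CIDEC were at the floor in all 6. Of 16 tested exocrine pancreas genes 13 were lower, where 79.6% of all genes were, and 0 were called. The summed TPM of the 16 was 97.3 in spleen 38, 27.5 and 28.8 in spleens 39 and 40, and 18.6 to 35.6 in the TS/PD1/CYTO spleens. Without spleen 38 the count of called genes was 0, as with it, and without both spleen 58 and spleen 38 it was 4995. Among the other 12 spleens of the fit, CTRB1 ran from the floor to 11.20. It was at 10.85 in Isotype spleen 9, 10.82 in PD1 spleen 29 and 11.20 in TS/CYTO spleen 48.

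The same addition of TS was also measured in mice without PD1. TS/CYTO minus CYTO in spleen gave 0 called genes, 67 with an unadjusted p under 0.05 (20 higher, 0.179%, and 47 lower, 0.42%) and a median difference of -0.01. B cell identity genes had a median of 0.06 there, T cell genes 0.00, red pulp macrophage genes -0.02 and erythroid genes -0.21. Eosinophil, basophil and mast cell genes had a median of -0.25. EPX, named from that list by its small p with PD1, was at 2.40, 1.94 and 1.99 in the CYTO spleens. It was at 0.69, 0.73 and 0.63 in the TS/CYTO spleens. Its difference was -1.43 ± 0.34 without PD1 and was not called. With PD1 it was -1.31 ± 0.34 (adjusted p = 0.273), and those groups overlapped. The EPX interaction was 0.11 ± 0.48 (adjusted p = 0.891), which does not show that the differences are equal. PRG2, the other gene named from the list, had -0.77 ± 0.39 without PD1 and -1.32 ± 0.39 with it. The difference between the 2 TS effects, tested as an interaction over 4 arms that share no library, gave 0 calls, 61 genes higher (0.545%) and 177 lower (1.58%) before adjustment and a smallest adjusted p of 0.541. The rule named TERF1, HIST3H2BA and ESPL1 on the higher side and SCAND1, MSRB1 and ZC3H11A on the lower. MSRB1, a methionine sulfoxide reductase, had an interaction of -0.70 with an adjusted p of 0.541. Without spleen 58 the interaction gave 3840 calls, 556 higher and 3284 lower.

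The draining lymph nodes (TDLN in the labels) of the same 6 mice, by their mouse numbers, gave a different set of medians. TS/PD1/CYTO minus PD1/CYTO in node had 8 called genes (4 in each direction, 0.0321% each) and a median of -0.05. The median was -0.53 for B cell identity genes, -0.13 for T cell genes, 0.40 for red pulp macrophage genes, 0.59 for collagen and matrix genes and 1.21 for adipocyte genes. The adipocyte marker ADIPOQ was at 4.30, 6.70 and 5.08 in the PD1/CYTO nodes and at 4.09, 7.70 and 7.92 in nodes 58, 59 and 60. PLIN1, a lipid droplet protein, was at 3.20, 5.58 and 4.01 against 3.00, 6.08 and 6.68, and CIDEC, another, at 3.86, 6.12 and 4.67 against 3.37, 7.07 and 7.39. Nodes 59 and 60 were thus the highest of the 6 for all 3 adipocyte markers, and their part in the node differences was not tested. The difference between spleen and node was tested over 36 libraries and 12454 genes; 1 gene was higher and 1 lower (0.00803% each), while 132 (1.06%) and 1074 (8.62%) had an unadjusted p under 0.05. Both called genes, SNORA21 and SNORA23, are small nucleolar RNAs at the floor in all 6 spleens except for 1 value of SNORA21. MRC1, the macrophage mannose receptor, was at 4.99, 5.11 and 4.62 against 5.30, 2.88 and 3.74 in spleen and at 3.44, 3.17 and 3.67 against 3.89, 5.14 and 4.50 in node. Spleens 59 and 60 were low for MRC1 and the nodes of mice 59 and 60, those with the highest adipocyte markers, were high, but the difference between tissues did not pass (-2.02 ± 0.57, adjusted p = 0.428). All nodes are labelled batch 2, so tissue and batch cannot be told apart in level; the arm difference is taken within each.

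**Figure D5:**
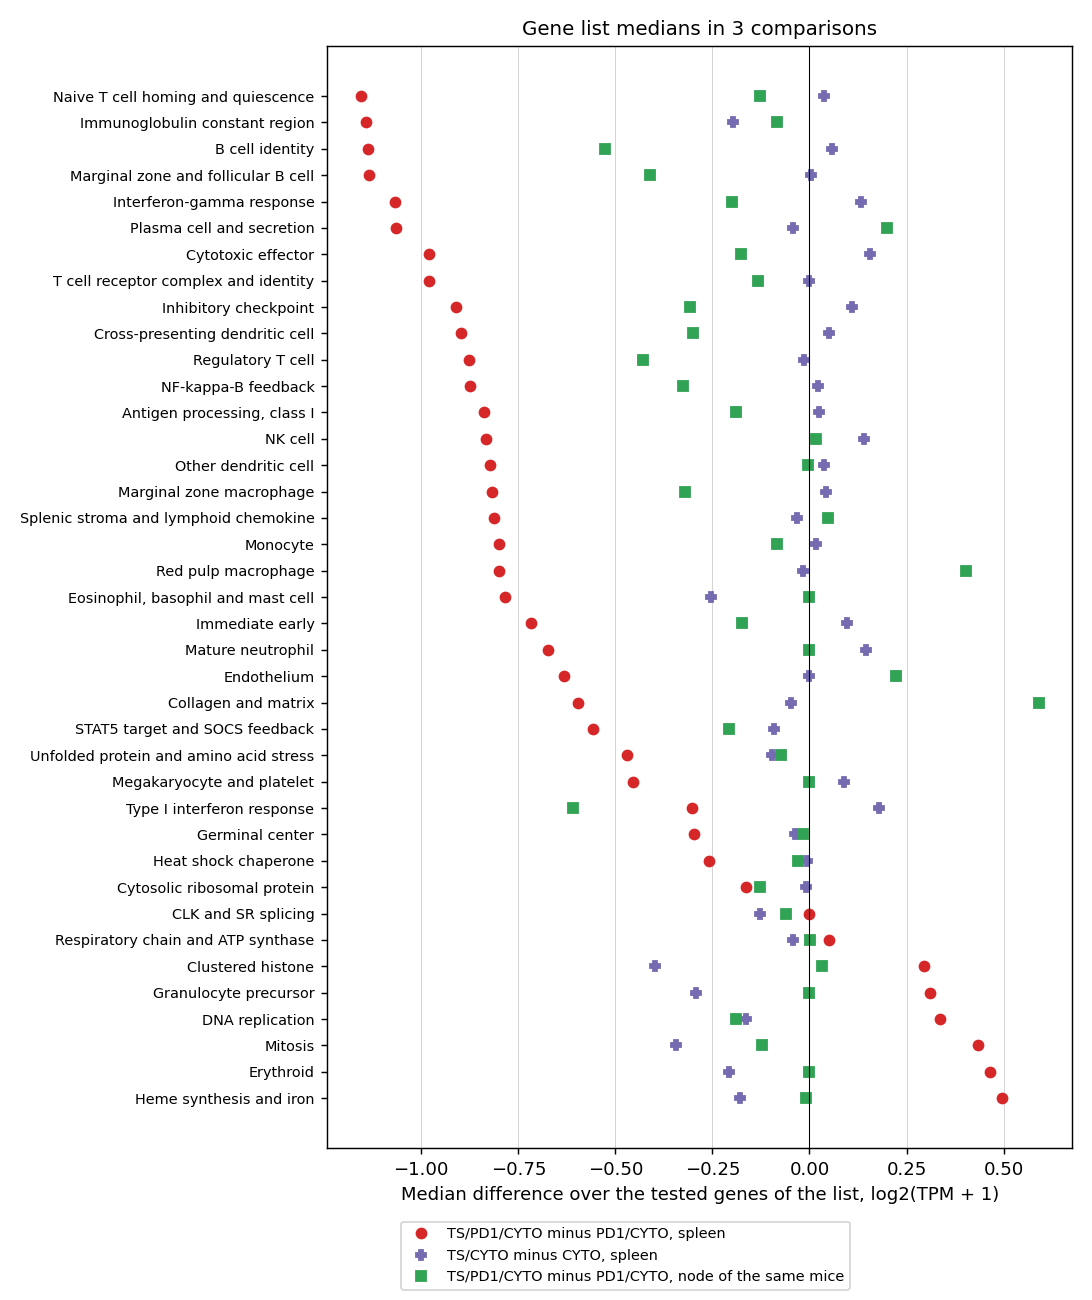
Median difference over the tested genes of each list (horizontal, log2(TPM + 1)) for TS/PD1/CYTO minus PD1/CYTO in spleen (red circles), TS/CYTO minus CYTO in spleen (purple crosses) and TS/PD1/CYTO minus PD1/CYTO in node (green squares), with lists as rows. The exocrine pancreas and adipocyte lists are not drawn (medians without PD1 of 1.18 and 0.41). Over the lists drawn, spleen medians without PD1 lie between -0.40 and 0.18, and with PD1 they run from -1.16 to 0.50.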

How the data were processed

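Expression was deposited by the authors as log2(TPM + 1), in 1 matrix of 16835 genes by 72 libraries given to 2 decimals. Per the submitters' processing notes, reads were written with bcl2fastq 2.20, aligned with STAR to mm10 and quantified with RSEM 1.3.0. The annotation release is not given in the sources used here, and positions are from GENCODE M21. Depth is unknown, since TPM keeps no read number.

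Genes above 0.01 in at least 3 of 18 spleens were fitted by arm with limma 3.58.1 (R 4.3.3; trended, robust moderation) on the deposited log2 values, and p-values were adjusted by the Benjamini-Hochberg method at 5% over all genes tested. Every p and adjusted p of a gene comes from this tool, which was checked on simulated data. There each change was equal in all spleens of the arm and genes varied independently. The check therefore does not cover an arm whose spleens differ as here. Each replicate is 1 mouse by its number in the labels, so p-values measure the spread between these mice. The spleen arms share no mouse; spleen and node of 1 mouse share its number, and 18 mice gave both. Their consensus correlation was -0.0114.

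The members, 41 gene lists and rules were chosen with earlier results of these data known. Named genes are, among genes above the median of mean levels, the 12 higher and 12 lower of smallest p, the 6 and 6 of largest difference among those passing without spleen 58, 3 and 3 of smallest p for the other contrasts, up to 2 members of smallest p per list, and markers; 3 of these genes are not reported here. Fits that leave out spleen 58 together with another choice were added after seeing the data. Figures were drawn with matplotlib 3.10.9.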

Additional observations from a re-analysis of the deposited data

Results flagged for a closer look

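Both results below were picked out because the arm difference in spleen and that in node were tested against each other and the test passed in limma. For SNORA21 the spleen difference minus the node difference was 3.01 ± 0.41 (SE, adjusted p = 0.000946). Its nodes were at 2.75, 2.30 and 2.95 in PD1/CYTO mice and at the floor in all 3 TS/PD1/CYTO mice. Its spleens were at the floor except spleen 59 at 1.06, and it was above the floor in 6 of 36 libraries. For SNORA23 the value was -0.75 ± 0.13 (adjusted p = 0.0343), with nodes at the floor in PD1/CYTO and at 0.58, 0.56 and 1.14 in TS/PD1/CYTO, all 6 spleens at the floor, and 4 of 36 libraries above it. Both values rest on the nodes, and no fold is given against the floor. Small nucleolar RNAs mostly lack a poly(A) tail, and these libraries selected for one. Groups of 3 spleens are too small for a test of single outlying samples.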

How the results depend on the processing

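The 0 calls for TS/PD1/CYTO against PD1/CYTO were also found with quantile normalization, rescaled TPM, no filter, a stricter filter, a pseudocount of 0.1, no trended moderation, RNA integrity, tumor volume or pancreas mean as a covariate, and the 6 spleens alone. Leaving out 1 spleen gave 0 to 6549 calls, the latter without spleen 58. Array weights, whose estimation did not converge and which gave spleen 58 a weight of 0.0138, gave 7841 calls. Without spleen 58 there were 5220 calls with quantile normalization, 5770 rescaled, 3130 with tumor volume, 7043 with RNA integrity, 6230 with the pancreas mean and 6484 with the 5 spleens alone. There were 4995 also without PD1/CYTO 38, 5466 also without spleen 60 and 1 also without spleen 59. The TS by PD1 interaction had 0 to 3840 calls when 1 spleen was left out and 7921 with array weights. The spleen to node difference (2 calls) gave 0 with quantile normalization, a stricter filter or the 12 libraries alone, 1 rescaled, 4 with a pseudocount of 0.1, 6546 with array weights and 1 to 5065 with 1 library left out, of which 5065 was without spleen 58 and 45 without node 58. With the mouse as a replicate block it gave 2 calls, and the block changed no call. The spleen contrast cannot be blocked because its arms share no mouse. The median over all genes (-0.33) was -0.016 with quantile normalization and -0.6344 with array weights.

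Signs that turned were GP6 with quantile normalization (0.0203), rescaled PF4 (0.0156), and, with RNA integrity, CPA1 (0.1303) and PNLIP (0.0761). With array weights S100A8 was -0.1279, S100A9 -0.2375, MPO -0.6313 and ELANE -0.2584. With 1 spleen left out, S100A8 ranged from -0.1383 to 0.5967, S100A9 from -0.2483 to 0.4517, MPO from -0.3033 to 0.7117, ELANE from -0.1217 to 0.715, PF4 from -0.4767 to 0.2083 and the RNA integrity difference from -0.1333 to 0.8. Of 147 named genes, 129 passed without spleen 58 and 129 with array weights. Over all genes, 6549 of 11125 passed without spleen 58 and 7841 with array weights. Many named genes were picked by small p or by passing without spleen 58, so their counts are partly fixed by that choice. The cause of these changes was not tested. With 3 mice an arm and no read depth, small differences were not detectable, and large ones did not pass either. UBD, at -1.44 ± 0.63 with an SD of 1.75 in the TS/PD1/CYTO spleens, had a limma adjusted p of 0.273.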
